A study of Mus musculus with 6 samples.

Results

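Translation initiation factors (gene symbols starting with Eif1 to Eif6) and translation elongation factors (Eef1 and Eef2) were described in mouse embryonic stem cells after knockdown of Ncoa3, a coactivator of nuclear receptors. Members were chosen by platform gene symbol alone. The array held 124 such probes for 62 genes, and 92 probes for 50 genes were kept because their signal stood above the negative controls (detection p under 0.01) on at least 3 of 6 arrays. The whole array held 45281 probes, of which 16674 were kept, and 11782 features were tested, 9569 named genes and the rest unnamed probes. One further gene with such a symbol is not reported here.

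The cells were E14, an established mouse embryonic stem cell line, and all samples were transfected with an shRNA plasmid and taken at day 4. In 3 samples the shRNA was scrambled and in the other 3 it targeted Ncoa3, and the labels call them biological replicates. The titles and the study design name Ncoa3 as the target, whereas the text of the treatment protocol names a plasmid against Esrrb. The only Ncoa3 probe with a platform symbol was above background on none of the 6 arrays, with a raw signal of 93.0 ± 6.90 in scrambled and 89.8 ± 1.92 in knockdown samples (mean ± SD, n = 3), so it could not check the label. Esrrb was detected on every array, and its mean log2 intensity was 14.03 in scrambled and 13.41 in knockdown samples, a 1.54-fold fall. It is also among the pluripotency markers below, most of which fell, and which gene the plasmid targeted was not tested. Between 15720 and 16311 probes were detected on the scrambled arrays and between 16262 and 17105 on the knockdown arrays. Pearson correlations of the kept probes were 0.994 to 0.996 within a group and 0.9695 to 0.972 between groups.

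Initiation factors load the initiator methionyl-tRNA onto the small ribosomal subunit, bring the subunit to the capped end of an mRNA and select the start codon. Elongation factor 1 then delivers each aminoacyl-tRNA to the ribosome, and elongation factor 2 moves the ribosome along by a codon. Phosphorylation of eIF2 by stress-sensing kinases brakes initiation, and that of eEF2 by its dedicated kinase brakes elongation. mTORC1 phosphorylates the eIF4E-binding proteins, which then release eIF4E, so loss of mTORC1 activity also brakes initiation. Mouse embryonic stem cells are known for a low rate of protein synthesis that rises as they differentiate.

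Most translation factor genes differed little between the groups. At a Benjamini-Hochberg adjusted p under 0.05 over all features, 13 of the 50 genes passed the limma test (26%), 4 higher and 9 lower after knockdown. Over all 11782 features, 46.9% passed, 22.5% higher and 24.3% lower. The split of the members moved with the scaling: it was 4 higher and 3 lower with median scaling over all probes, 3 and 18 with median scaling over the kept probes, and 6 and 7 in the authors' normalized values. The share of higher genes among all called features was 48.1% here, 69.1%, 43.1% and 59.8% in the same order. A change of at least 1.5-fold as well was found for 2 members (4%), a rise of Eif5b and a fall of Eef2k, against 16.1% of all features. The median log2 change (knockdown minus scrambled, here and throughout) was -0.062 over the members and -0.027 over all features. The median size of the change was 0.12 for members and 0.23 for all features, and 43 members (86%) moved by under 0.25, against 53.3% of all features. The members' standard errors had a median of 0.070, against 0.080 for all features.

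**Figure D1:**
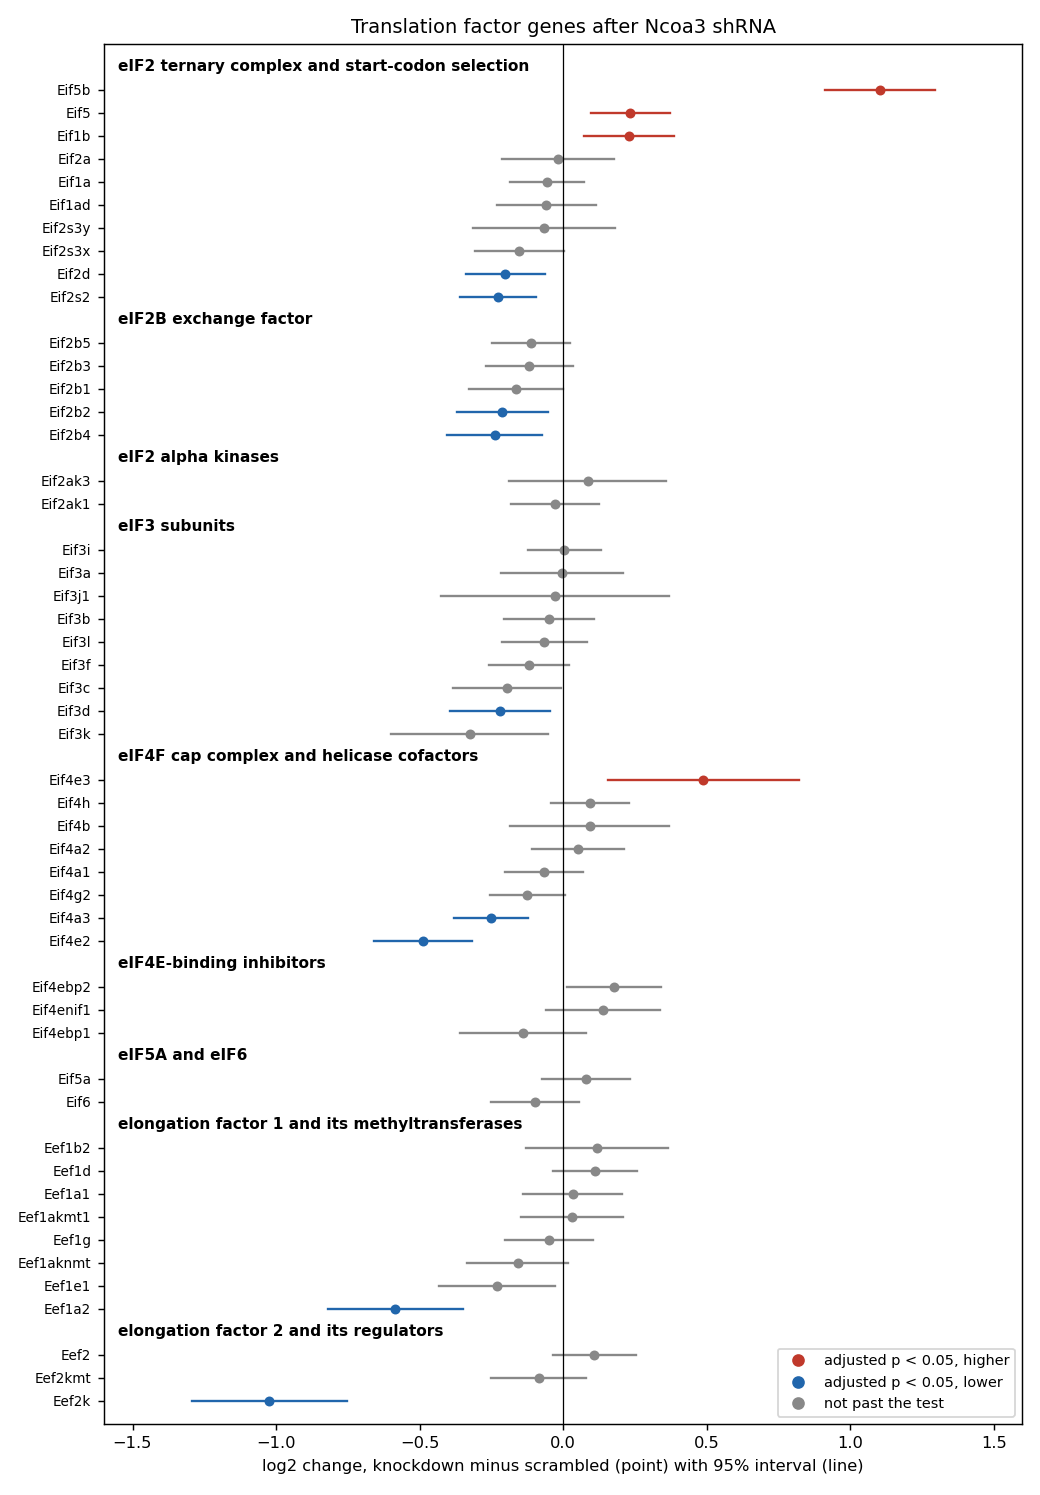
Log2 change of each of the 50 translation factor genes (knockdown minus scrambled, horizontal axis) with its 95% interval, grouped by role, with genes past the test in red (higher) and blue (lower) and all others in grey. The intervals of most genes lie close to 0, while Eif5b at 1.10 and Eef2k at -1.02 stand farthest out.

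Of the 50 members, 33 had a negative and 17 a positive change, and 53.6% of all features had a negative one. The 3 scrambled and 3 knockdown values did not overlap for 27 members (54%), 7 higher and 20 lower after knockdown, against 57.8% of all features, 26.8% higher and 31.0% lower. Taken array by array, against the scrambled mean of each gene, the members' median was -0.067, -0.062 and -0.077 on knockdown replicates 1 to 3, while that of all features lay between -0.028 and -0.021. On the scrambled arrays the members' medians were 0.0086, 0.015 and -0.016. A small downward shift of the members, beyond that of all features, was thus present on every knockdown array, and it depended on the scaling. The knockdown arrays share the same scrambled mean as reference, so their medians are not independent of each other. With median scaling over all probes the median of all features became 0.091 and that of the members 0.0096. The members again stood below the features, but median scaling moves all probes of an array by the same amount. Their order under it is thus no separate support. Levels on these arrays are relative to the other probes, and in bulk RNA fewer cells of a type and less RNA per cell cannot be told apart.

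**Figure D2:**
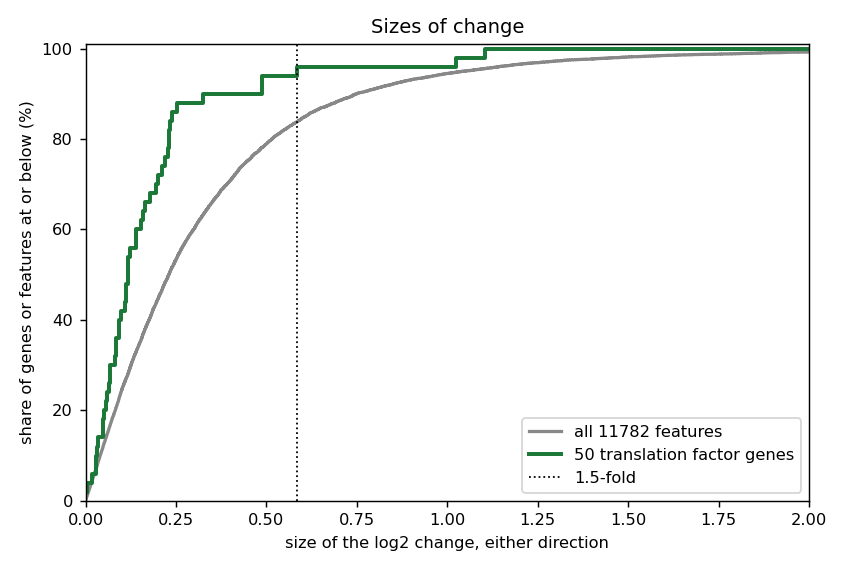
Cumulative share (vertical axis, %) of the 50 translation factor genes and of all 11782 features with a log2 change of at most the size on the horizontal axis, in either direction. The members' curve lies to the left of that of all features: 86% of members and 53.3% of features moved by under 0.25.

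Among the 10 measured factors of the eIF2 ternary complex and start-codon selection, 3 rose, 2 fell and 5 did not pass the test. The share that passed was thus 50%, close to the 46.9% of all features, against which the counts of the other roles also stand. Eif5b, the GTPase that joins the large ribosomal subunit at the start codon, had the largest change of all members. Its log2 intensity was 6.07, 6.19 and 6.31 in the scrambled samples and 7.29, 7.38 and 7.21 in the knockdown samples, given here and below in the order of replicates 1 to 3. Every knockdown array lay above every scrambled array, and the gene rose by 1.10 ± 0.082 (SE, n = 3 arrays per group, as for every change given here), or 2.15-fold, with an adjusted p of 4.58e-05. The rise rested on 1 of 3 probes, since the others were detected on none of the arrays. Its size depended on the background correction, with 0.67 when none was applied, and it passed under every alternative run.

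Eif5, which makes eIF2 hydrolyse its GTP when the start codon is found, had values of 12.48, 12.48 and 12.46 in scrambled and 12.70, 12.77 and 12.65 in knockdown samples. The groups did not overlap, and Eif5 rose by 0.23 ± 0.059 (adjusted p of 0.0137), though the change was 0.13 and missed the threshold with median scaling over the kept probes. All 3 of its probes had positive changes. Eif1b, a close relative of the start-codon gatekeeper eIF1, stood at 9.55, 9.61 and 9.43 in scrambled and 9.73, 9.77 and 9.78 in knockdown samples. It rose by 0.23 ± 0.067 (adjusted p of 0.0256), without overlap of the groups. That call was lost under 6 of 19 alternatives, among them when scrambled replicate 3 or any one of the knockdown replicates was left out, where the change lay between 0.18 and 0.24 (adjusted p of up to 0.0779).

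Eif2s2 encodes the beta subunit of eIF2. Its values were 12.64, 12.69 and 12.73 in scrambled and 12.44, 12.46 and 12.48 in knockdown samples, all knockdown arrays below all scrambled arrays, and it fell by 0.23 ± 0.057 (adjusted p of 0.0139). Eif2d, a factor that can place tRNA on the small subunit without GTP, stood at 10.48, 10.44 and 10.42 in scrambled and 10.24, 10.20 and 10.30 in knockdown samples. It fell by 0.20 ± 0.059 (adjusted p of 0.0254), again without overlap. Both kept probes of Eif2s2 and both of Eif2d passed as lower. With median scaling over all probes neither gene passed, at -0.18 for Eif2s2 and -0.091 for Eif2d, and Eif2s2 passed under all other alternatives. Eif2d missed the threshold under 9 of 19 alternatives, among them cyclic loess (-0.15), the authors' normalized values (-0.10) and leaving out scrambled replicate 1 or 2 or knockdown replicate 1 or 2. The 5 factors of this role that did not pass were Eif2s3x and Eif2s3y, the X-linked and Y-linked copies of the gamma subunit, with Eif1a, Eif1ad and Eif2a. Their changes ran from -0.15 for Eif2s3x (95% interval -0.31 to 0.0033) to -0.018 for Eif2a (95% interval -0.21 to 0.18).

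All 5 subunits of eIF2B, the exchange factor that recharges eIF2 with GTP and is inhibited by phosphorylated eIF2, had negative changes here, but Eif2b3 was at 0.013 with median scaling over all probes. Their median was -0.16, and 2 of the 5 (40%) passed as lower. Of all features, 53.6% had a negative change and 24.3% passed as lower. Eif2b4, the delta subunit, had values of 10.82, 10.99 and 10.83 in scrambled and 10.58, 10.68 and 10.66 in knockdown samples. Without overlap of the groups, it fell by 0.24 ± 0.070 (adjusted p of 0.0271). Eif2b2, the beta subunit, stood at 10.40, 10.42 and 10.36 in scrambled and 10.22, 10.08 and 10.25 in knockdown samples and fell by 0.21 ± 0.068 (adjusted p of 0.0361). Its groups did not overlap either. The remaining subunits did not pass, at -0.16 for Eif2b1 (95% interval -0.33 to -0.00039), -0.12 for Eif2b3 (-0.27 to 0.033) and -0.11 for Eif2b5 (-0.25 to 0.026). Both calls depended on single arrays: Eif2b4 did not pass without scrambled replicate 2 or knockdown replicate 1 or 3, and Eif2b2 did not pass when any one of the scrambled replicates, or knockdown replicate 1 or 2, was left out. Eif2b4 was lost under 5 and Eif2b2 under 10 of 19 alternatives, the latter also with cyclic loess (-0.16) and in the authors' normalized values (-0.11). With median scaling over all probes neither passed, at -0.16 for Eif2b4 and -0.097 for Eif2b2.

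The kinases that phosphorylate eIF2 were represented by Eif2ak1, the heme-regulated kinase, and Eif2ak3, the kinase PERK of the endoplasmic reticulum. Neither passed the test. Eif2ak1 had a change of -0.029 (95% interval -0.18 to 0.12). Eif2ak3 was detected on 1 scrambled and 2 knockdown arrays, and its change was 0.085 (95% interval -0.19 to 0.36).

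Of 9 measured subunits of eIF3, the large scaffold that holds the small ribosomal subunit and recruits the mRNA, 1 fell and 8 did not pass. The subunit that fell was Eif3d, known from human cells as a cap-binding subunit. Its values were 13.01, 12.80 and 12.87 in scrambled and 12.72, 12.61 and 12.69 in knockdown samples, without overlap, and it fell by 0.22 ± 0.074 (adjusted p of 0.0443). This call had the highest adjusted p of the 13 and was lost under 9 of 19 alternatives, among them leaving out any array other than scrambled replicate 2, cyclic loess (-0.18) and median scaling over all probes (-0.16). The other subunits ran from -0.33 for Eif3k (95% interval -0.60 to -0.053, adjusted p of 0.0532) to 0.0042 for Eif3i (-0.12 to 0.13). Eif3k passed as lower under 8 of 19 alternatives. Between those lay Eif3c at -0.20, Eif3f at -0.12, Eif3l at -0.065, Eif3b at -0.048, Eif3j1 at -0.028 and Eif3a at -0.0031.

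Of 8 measured members of the eIF4F cap-binding complex and its helicase cofactors, 1 rose, 2 fell and 5 did not pass. The 3 genes that passed are all relatives of core subunits. Eif4e2 encodes 4EHP, a cap-binding protein that represses translation of the mRNAs it holds. Its values were 10.90, 11.03 and 10.94 in scrambled and 10.41, 10.42 and 10.58 in knockdown samples. The groups lay well apart, and Eif4e2 fell by 0.49 ± 0.073, or 1.40-fold (adjusted p of 0.00129), a call kept under every alternative run. Its 3 kept probes had changes of -0.73, -0.49 and 0.068, and the first and second of these passed as lower.

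Eif4e3, another cap-binding relative of eIF4E, had values of 5.36, 5.93 and 5.80 in scrambled and 6.27, 6.11 and 6.17 in knockdown samples. All knockdown arrays were above all scrambled arrays, and it rose by 0.49 ± 0.14 (adjusted p of 0.0253). A second probe was detected on none of the scrambled and all 3 knockdown arrays. It was kept only through the group in which it was high, so its direction is no further support. The call was lost under 3 of 19 alternatives, without knockdown replicate 1 or 3 and without a filter on dim probes, and the change was 0.23 without background correction. Eif4a3, the RNA helicase of the exon junction complex, stood at 12.10, 12.05 and 12.08 in scrambled and 11.80, 11.84 and 11.83 in knockdown samples. It fell by 0.25 ± 0.055 (adjusted p of 0.00752) without overlap, and missed the threshold at -0.20 with median scaling over all probes. The translation helicases themselves did not pass, at -0.067 for Eif4a1 (95% interval -0.20 to 0.068) and 0.051 for Eif4a2 (-0.11 to 0.21). The cofactors Eif4b and Eif4h were at 0.093 and 0.094. Eif4g2, a scaffold without an eIF4E-binding site that mouse embryonic stem cells need for differentiation, was at -0.12 (95% interval -0.26 to 0.0069).

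The 3 measured genes for proteins that bind and restrain or move eIF4E did not pass the test. Eif4ebp1, the best known mTORC1 target among them, had a change of -0.14 (95% interval -0.36 to 0.079). Eif4ebp2 was at 0.18 (0.015 to 0.34), with every knockdown array above every scrambled array, and it passed as higher under 4 of 19 alternatives. Eif4enif1, which carries eIF4E into the nucleus, was at 0.14 (-0.060 to 0.34). Eif5a, which helps the ribosome through difficult stretches such as runs of proline, was at 0.081 (-0.072 to 0.23). Eif6, which keeps free large subunits from joining small ones, was at -0.099 (-0.25 to 0.055).

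**Figure D3:**
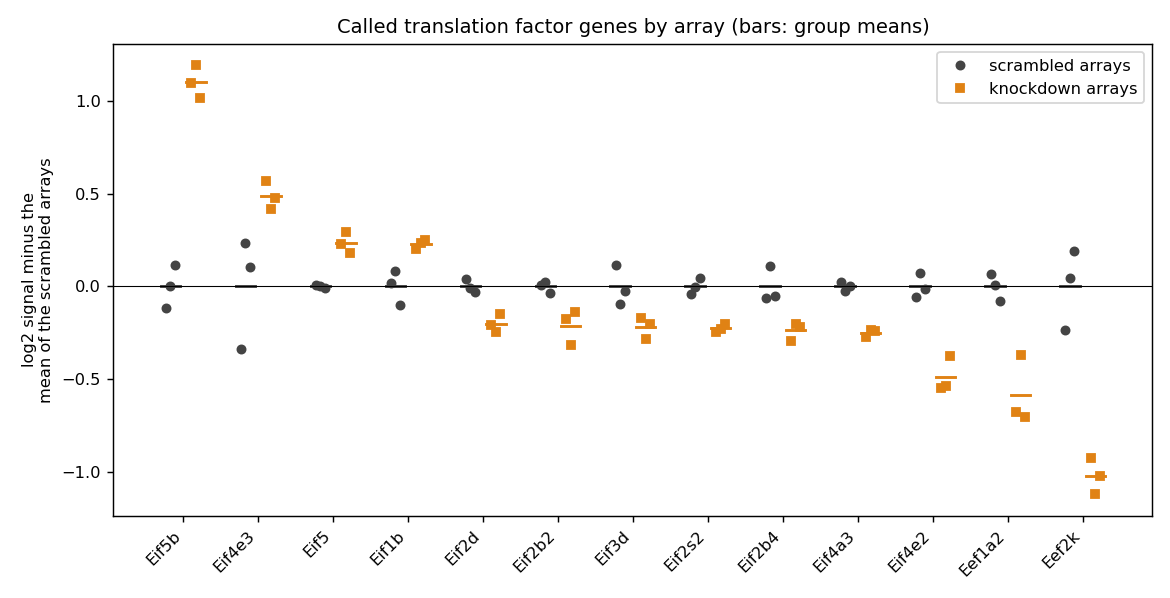
Log2 intensity on each array, as a difference from the gene's scrambled mean (vertical axis), for the 13 translation factor genes past the test, with scrambled and knockdown replicates as separate points. For each of the 13 genes the knockdown points lie all above or all below the scrambled points, from 1.10 for Eif5b to -1.02 for Eef2k in the mean. The genes were chosen by the test on the same arrays, so this separation is no further support. Groups did not overlap for 57.8% of all features.

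Of 8 measured genes of elongation factor 1 and its methyltransferases, 1 fell and 7 did not pass. Eef1a2, the form of eEF1A typical of muscle and neurons, had values of 6.17, 6.11 and 6.02 in scrambled and 5.42, 5.73 and 5.40 in knockdown samples. The groups did not overlap, and Eef1a2 fell by 0.58 ± 0.10 (adjusted p of 0.00252). The call was kept under every alternative run, but the change was smaller in the authors' normalized values (-0.25) and without background correction (-0.26). Its second kept probe was at -0.28 (adjusted p of 0.0563). Eef1a1, the widely expressed form, was at 0.033 (95% interval -0.14 to 0.21).

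The subunits that recharge eEF1A did not pass, at 0.12 for Eef1b2, 0.11 for Eef1d and -0.049 for Eef1g. For Eef1b2 the knockdown arrays spread widely, at 12.40, 12.22 and 12.64, against 12.31, 12.28 and 12.32 in the scrambled samples. Eef1e1, which sits in the complex of aminoacyl-tRNA synthetases, was at -0.23 (95% interval -0.43 to -0.027, adjusted p of 0.0635), and it passed as lower under 7 of 19 alternatives. The methyltransferases of eEF1A were at 0.031 for Eef1akmt1 and -0.16 for Eef1aknmt.

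Elongation factor 2 itself did not pass, while its kinase fell. Eef2k encodes the kinase that phosphorylates eEF2 and slows elongation. Its values were 5.93, 6.21 and 6.36 in scrambled and 5.24, 5.05 and 5.14 in knockdown samples, the latter detected on 2 of 3 arrays. The groups lay clearly apart, and Eef2k fell by 1.02 ± 0.11 (SE), or 2.03-fold, with an adjusted p of 0.000337. The size of this fall was not stable: the second kept probe of Eef2k was at 0.014 (adjusted p of 0.919), the mean over both probes at -0.50, and the value without background correction was -0.44. The call was kept under the 18 alternatives that measured it. Eef2 was at 0.11 (95% interval -0.034 to 0.25), and Eef2kmt, which methylates eEF2, at -0.085 (-0.25 to 0.080).

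Of the 37 members that did not pass, 36 had a 95% interval within a 1.5-fold change in either direction. The exception was Eif3k, whose lower bound was -0.60. Under each of the alternatives, no other gene of the 37 had an interval beyond 1.5-fold. Each interval is that of the value that stood for the gene, so it does not bound the change on other kept probes. The second kept probe of Eif3b, for example, was at -0.46 ± 0.14 (SE). All intervals describe array signal, which can understate the change of dim genes.

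The other 12 genes had no kept probe and were not tested. They were Eif4e, the cap-binding subunit itself, Eif4g3, Eif4e1b, Eif4ebp3, Eif1ax, Eif2ak4, Eif2s3x-ps1, Eif3m, Eif5a2 and Eef1akmt2, each detected on none of the arrays, with Eif3h, detected on 2 knockdown arrays, and Eif3e, detected on 1 knockdown array. An undetected probe gives no level, and it does not show that the gene is silent. No probe had Eif1, Eif2s1, Eif3g or Eif4g1 as its only platform symbol, so these genes were not measured here.

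Probes of the same gene did not always move together. Of the 92 kept probes, 21 passed the test with adjustment over all kept probes (22.8%), 5 higher and 16 lower, with the second Eif4e3 probe among the 5, against 43.6% of all kept probes, 20.9% higher and 22.7% lower. Those 21 probes belonged to 17 genes. In 5 of these, Eif1ad, Eif2b1, Eif3b, Eif4g2 and Eif6, a second probe passed as lower while the brightest probe, which represented the gene, did not, with changes of the second probe of -0.31, -0.23, -0.46, -0.38 and -0.25. Of the 30 genes with several kept probes, 10 had probes of opposite sign. They were Eef1a1, Eef1d, Eef2, Eef2k, Eif3i, Eif4a2, Eif4b, Eif4e2, Eif4g2 and Eif5a. The widest spreads among them were 1.04 for Eef2k, 0.80 for Eif4e2 and 0.42 for Eif4g2. Probe sequences were not used here, so whether probes read different transcripts or near-identical relatives, such as the processed copies of Eef1a1, was not tested.

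**Figure D4:**
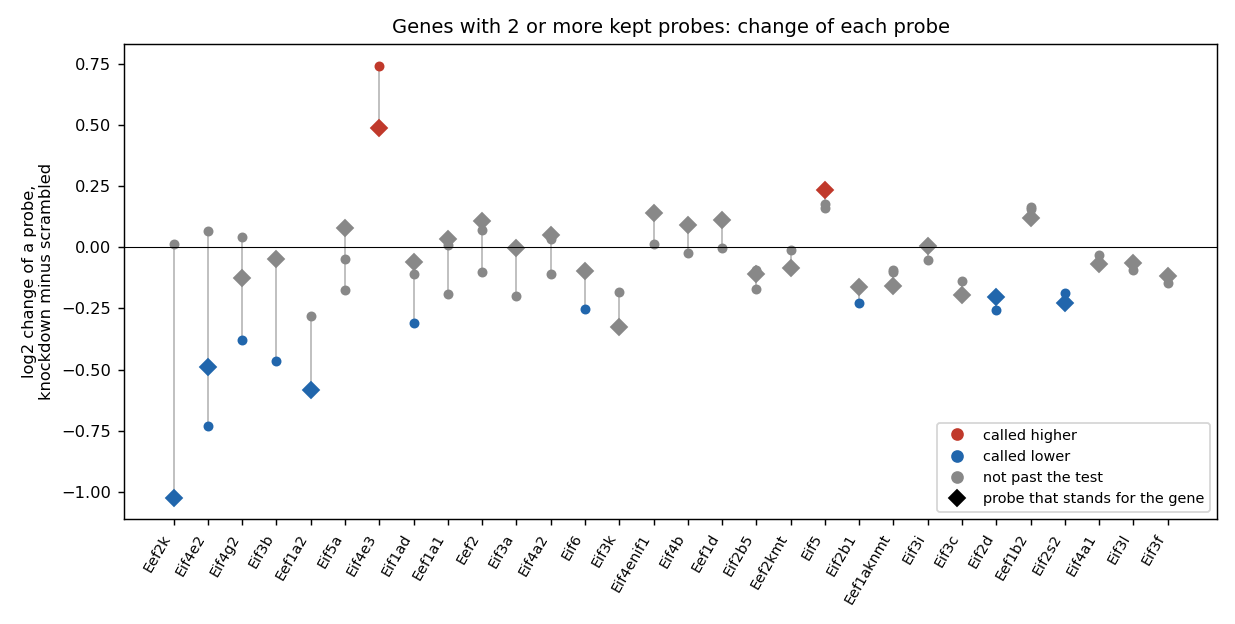
Log2 change (knockdown minus scrambled) of each kept probe for the 30 translation factor genes with several kept probes, with the probe that represents the gene drawn as a diamond. The probes of Eef2k span 1.04 and those of Eif4e2 span 0.80, while those of Eif3f span 0.027.

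Promoter sequences are given for 5 members that passed the test and were chosen after their values were seen: the largest rise, the largest fall and 3 others that hold a motif near the start. RefSeq windows (GRCm38.p6, from 250 bases before the annotated start to 50 after) were found for 40 of the 50 genes. The bases below run from 100 before the annotated start through the first 20 of the transcript, 5′ to 3′ on the gene's strand, and capitals mark a match to the E-box CACGTG or to the ETS-type core CCGGAAG on either strand (CTTCCGG on the other). Eif5b, the largest rise, lies at chr1:37997910-37998029, plus strand, and holds neither. Eef2k, the largest fall, lies at chr7:120842731-120842850, plus strand. Eef2k and Eif4e2 have several annotated starts, of which the first is shown. Eif4e2 lies at chr1:87213811-87213930, plus strand. Eif2b4 lies at chr5:31193120-31193239, minus strand, and Eif1b at chr9:120492506-120492625, plus strand.
Eif5b: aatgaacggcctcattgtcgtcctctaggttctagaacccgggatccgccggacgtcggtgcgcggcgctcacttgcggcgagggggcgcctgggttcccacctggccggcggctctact
Eef2k: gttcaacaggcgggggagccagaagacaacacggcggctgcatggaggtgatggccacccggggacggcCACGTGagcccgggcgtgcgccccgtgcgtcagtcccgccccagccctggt
Eif4e2: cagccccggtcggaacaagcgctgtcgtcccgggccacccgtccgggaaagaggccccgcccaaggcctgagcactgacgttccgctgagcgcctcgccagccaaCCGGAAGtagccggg
Eif2b4: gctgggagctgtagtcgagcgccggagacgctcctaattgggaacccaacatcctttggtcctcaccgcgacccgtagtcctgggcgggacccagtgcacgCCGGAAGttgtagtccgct
Eif1b: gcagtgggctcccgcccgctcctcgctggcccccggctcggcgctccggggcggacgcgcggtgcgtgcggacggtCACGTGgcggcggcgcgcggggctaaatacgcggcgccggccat
In these windows the E-box of Eef2k and of Eif1b lies upstream of the start, and the ETS-type core of Eif4e2 and of Eif2b4 just downstream of it. The other annotated starts of Eef2k hold no match, and at the last annotated start of Eif4e2 the ETS-type core lies upstream. Over the whole 300-base windows, the ETS-type core was present for 13 of the 40 genes (32.5%), against 9.93% of all 27025 genes with a window. The E-box was present for 10 of the 40 (25.0%), against 8.09%. Shares over all genes with a window include genes not kept on this array, whereas every member was kept. A comparison with kept genes alone was not made. Genes that passed the test held the ETS-type core in 5 of 12 cases and the E-box in 2 of 12. The element TCAAGGTCA, known to be bound by Esrrb, was searched on both strands (TGACCTTGA on the other) and was in none of the 40 windows, against 0.466% of all genes. A match describes letters in a window and is not evidence of binding, and its absence from this window says nothing of the factor.

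In the lists of related genes, between 28.6% and 44.4% of measured genes passed the test, against 46.9% of all features. Of 16 measured genes of mTORC1 and eIF4E signalling, the pathway that sets the activity of the eIF4E-binding proteins, 3 rose, 2 fell and 11 did not pass, with a median of -0.0011. Ddit4, a stress-induced inhibitor of mTORC1, had the largest change, a rise of 1.42 ± 0.063, or 2.68-fold (adjusted p of 4.26e-06). Tsc1, part of the complex that restrains mTORC1, rose by 0.36 ± 0.073, while its partner Tsc2 fell by 0.20 ± 0.061, a call lost under 10 of 19 alternatives. Deptor, an inhibitor that binds mTOR, fell by 0.50 ± 0.064.

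Of 24 other cytosolic translation and release factors, 1 rose, 9 fell and 14 did not pass (median -0.11). Denr, a factor for reinitiation and recycling, fell by 0.62 ± 0.064 and Dhps, which starts the hypusine modification of eIF5A, by 0.53 ± 0.076. Abce1, the ribosome-splitting ATPase, fell by 0.46 ± 0.11, a call lost with median scaling over all probes, and Ppp1r15a, which recruits the phosphatase for eIF2, by 0.42 ± 0.057. Of 21 genes for aminoacyl-tRNA synthetases and for Aimp1 and Aimp2, scaffold proteins of the synthetase complex, 2 rose, 4 fell and 15 did not pass (median -0.14). The tyrosyl synthetase Yars fell by 0.53 ± 0.077, Vars by 0.34 ± 0.063 and Farsb by 0.34 ± 0.062, while the histidyl synthetase Hars rose by 0.40 ± 0.12, a call lost under 4 of 19 alternatives. The other gene that rose was the scaffold gene Aimp2, by 0.17 ± 0.058 (adjusted p of 0.0450), named after its value was seen. Of 9 mitochondrial translation factors, 4 fell and 5 did not pass, and their median was -0.31. Those that fell were the release factor Mtrf1l by 0.51 ± 0.10, the elongation factors Tufm by 0.38 ± 0.064 and Tsfm by 0.38 ± 0.077, and Gfm2, which takes part in recycling, by 0.31 ± 0.073, the last lost with median scaling over all probes.

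**Figure D5:**
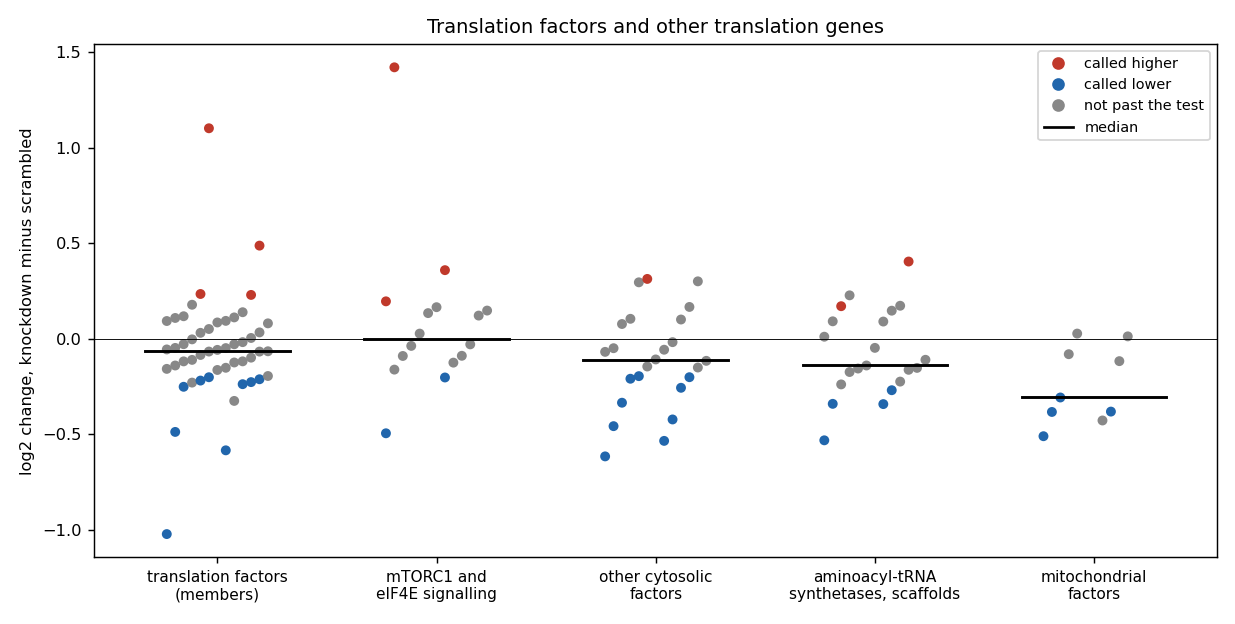
Log2 change (knockdown minus scrambled, vertical axis) of each measured gene of the translation factors and of the lists of related genes, with the median of each list as a bar. The median of the 9 mitochondrial translation factors lies at -0.31, against -0.062 for the 50 translation factors.

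Cell identity markers moved with the same contrast. All 10 pluripotency markers were detected on every array, and 9 of them fell and 1 rose, with a summed level of 74364 to 76710 in scrambled and 58465 to 60609.9 in knockdown samples. Of 10 trophectoderm markers 7 were measured and all 7 rose, with a summed level of all 10 of 2396 to 2595 against 5316 to 5518, though a marker silent in scrambled samples entered the count only through detection on all 3 knockdown arrays, and the defining markers Eomes and Hand1 were on no array above background. Of 8 primitive endoderm markers 5 were measured, 3 rose and 1 fell, and Gata4 and Sox17 were detected on no array. The sum was 2473 to 2628 in scrambled and 3989 to 4053 in knockdown samples. All these sums are of linear signal, so bright genes weigh most. Mean log2 intensity went from 10.02 to 11.39 for Sparc, from 5.28 to 6.16 for Gata6 and from 6.14 to 6.46 for Sox7. Lama1 fell from 10.29 to 9.96. The rise of this sum thus rested mainly on Sparc. None of 6 fibroblast markers was kept, with sums of 154 to 170.2 and 137 to 152. The part of this marker shift in the changes of the translation factor genes was not tested.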

How the data were processed

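Illumina bead arrays measured total RNA of 6 samples. Per the file headers, one deposited table gave the non-normalized intensity of each probe, on a linear scale, beside its detection p-value. The authors' normalized table, also deposited as linear intensity, kept the rank order of the raw signal on each array. Its method is not given in the sources used here. Group and replicate number came from the sample titles.

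The raw signal was background-corrected with the detection p-values, given an offset of 16, quantile normalized and taken as log2 with the neqc function (limma 3.58.1, R 4.3.3). Probes were kept at a detection p under 0.01 on at least 3 of 6 arrays. Symbols came from the platform annotation, which gave 34885 probes 1 gene, 18 probes several and 10378 none, and all 50 members matched RefSeq by gene number. The brightest kept probe, by its mean over 6 arrays, stood for a gene with several, and unnamed probes were tested singly. Every adjusted p is from limma (lmFit and eBayes, 2-sided) with Benjamini-Hochberg adjustment over all 11782 features, or over all 16674 kept probes where single probes are named, and a gene rose or fell when it was under 0.05. Intervals are 95% intervals of the same fit, errors of changes are standard errors, and each group had 3 arrays, whose number limits the precision. An exact permutation of 3 against 3 cannot go below p = 0.1.

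Members and lists were chosen with earlier results of these data known. Values on every array are given for the genes past the test, names for every other member, and up to 4 called genes by size of change for each list of related genes. No block was used, and samples with the same replicate number did not deviate together (correlations of -0.0035, -0.012 and 0.016). Alternatives changed background correction, normalization, probe filter, choice of probe, variance model, replicate block and the arrays included. Promoters were searched with Python 3.11.15.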

Additional observations from a re-analysis of the deposited data

How the results depend on the processing

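Across 19 alternatives, the share of members past the test (11.3% to 44%) was below that of all features each time. Of the 13 called members, Eif5b, Eif4e2, Eef1a2 and Eef2k passed under every alternative that measured them, and the other 9 missed the threshold under at least 1. Of the 37 others, 14 passed under at least 1 alternative and 23 under none. No called gene reversed, while 51 values of genes that passed in neither setting changed sign. The number of members that fell was 14 without background correction, 3 with median scaling over all probes, 18 with median scaling over the kept probes, 5 without a filter on dim probes, 14 for the mean over the kept probes of a gene, and 16 with a trended and robust prior. The number that rose was 2 without a filter. The members' median change was -0.026 with cyclic loess, 0.0096 with median scaling over all probes, -0.15 with median scaling over the kept probes, -0.0095 in the authors' normalized values, -0.038 without a filter and -0.073 for the mean over the kept probes. Leaving out each array in turn gave 2 to 4 members higher, 6 to 8 lower, a median of -0.078 to -0.050 and 4698 to 5172 called features. With the replicate number as a block, 3 members rose and 8 fell with an unchanged median of -0.062, and 5133 features were called. Eif1b, Eif2d and Eif2b2 were then lost and Eef1e1 gained. The numbers share no stated batch. Removing the filter raised the features tested to 29453. Apart from that and the arrays left out, the cause of these differences was not tested. Slide and scan date were not given, so no such block was run. Signal close to background limits the size of change of Eif5b, Eif4e3, Eef1a2 and Eef2k.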
